A study of Mus musculus with 17 samples.

Results

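The 10 genes described here, called members below, encode acute phase proteins and metallothioneins of the liver: Lcn2, Steap4, Hp, Saa1, Saa2, Saa3, Orm1, Orm2, Mt1 and Mt2. They were chosen by gene symbol from a table of normalized counts for 24676 genes, in which each of the 10 symbols occurred once. The table holds 17 RNA-seq libraries from whole liver; the sample labels give the mice as male, of mixed strain and 11 weeks old, while the series' design text gives a younger age. All mice carried floxed Gata4 alleles, so the controls are Gata4 fl/fl too. At 10 weeks they had received an adeno-associated virus of serotype 8, either empty (control) or carrying Cre recombinase under Tbg, a promoter active in hepatocytes (Gata4LKO). A week later they were gavaged with 40 mg/kg of GW3965, a compound that activates liver X receptors (LXR), in canola oil, or dimethylsulfoxide in canola oil (vehicle). The doses were given 17 h and 8 h before the livers were taken, after a 4 h fast. There were 4 libraries from control livers with vehicle, 4 from Gata4LKO livers with vehicle, 4 from control livers with GW3965 and 5 from Gata4LKO livers with GW3965. The empty virus lacks Cre, so the presence of Cre and the Gata4 genotype cannot be told apart, and Cre under Tbg acts in hepatocytes, not in the other cells of the liver.

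In inflammation, interleukin-6 and interleukin-1 act on hepatocytes through their receptors, and the transcription factors STAT3, NF-kB and the C/EBP family then switch on genes for secreted acute phase proteins. Glucocorticoids strengthen many of these responses. Metallothioneins are small cysteine-rich proteins that bind zinc and copper; their genes are switched on by metals through the factor MTF1 and also by glucocorticoids and inflammation. LXR are nuclear receptors for oxysterols that raise genes of cholesterol export and lipogenesis and are known to repress part of the inflammatory programme in macrophages and liver.

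Several members lie side by side in the genome and resemble each other, which bears on how reads are shared between them. In the mm10 (GRCm38) assembly with the GENCODE M21 annotation, all 10 are protein-coding genes. Saa3 (chr7:46711998-46715700), Saa1 (chr7:46740497-46742980) and Saa2 (chr7:46751790-46754313) form a cluster in which Saa1 and Saa2 are 8809 bp apart and point away from each other. Orm1 (chr4:63344560-63348163) and Orm2 (chr4:63362449-63365878) are separated by 14285 bp, with Orm3 (chr4:63356162-63359511) between them. Mt2 (chr8:94172664-94173568) and Mt1 (chr8:94179082-94180327) are 5513 bp apart on the same strand. Lcn2 (chr2:32384633-32388252), Steap4 (chr5:7960457-7982213) and Hp (chr8:109575128-109579172) stand alone. The annotated principal transcripts of Saa1 and Saa2 were 94.4% identical over 606 aligned bases, those of Orm1 and Orm2 91.0% over 775 bases, and those of Mt1 and Mt2 72.3% over 481 bases. Runs of 50 bases shared exactly made up 9.11% of those in Saa1 (with Saa2), 20.4% of those in Orm1 (with Orm2) and 0% of those in Mt1 (with Mt2). The split of reads inside the Saa1 and Saa2 pair and the Orm1 and Orm2 pair is therefore less certain than their sums. Mt2 overlaps the antisense gene Gm45774 (chr8:94170748-94173412), and without a stated strand setting reads of these overlapping genes cannot be told apart.

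Promoter sequence from RefSeq (GRCm38.p6, 250 bases before to 50 bases after the annotated start) was matched for 8 of the 10 members, all except Orm1 and Hp. The pairs that varied together between libraries are shown, since their upstream sequence can be compared directly, with Orm2 as another acute phase gene. For Saa1, Saa2 and Orm2 the first 200 bases of the window are given 5′ to 3′, with matches to the C/EBP motif TTGCNNAA on either strand in capitals. For Mt1 and Mt2 the 250 bases before the RefSeq start are given, with matches to the metal response element core TGCACNC or TGCGCNC on either strand in capitals.
Saa1, minus strand, chr7:46743031-46743230: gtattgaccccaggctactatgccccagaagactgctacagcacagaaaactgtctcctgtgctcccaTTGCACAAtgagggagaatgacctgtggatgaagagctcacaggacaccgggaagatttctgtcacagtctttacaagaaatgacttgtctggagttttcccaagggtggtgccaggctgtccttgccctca
Saa2, plus strand, chr7:46751583-46751782: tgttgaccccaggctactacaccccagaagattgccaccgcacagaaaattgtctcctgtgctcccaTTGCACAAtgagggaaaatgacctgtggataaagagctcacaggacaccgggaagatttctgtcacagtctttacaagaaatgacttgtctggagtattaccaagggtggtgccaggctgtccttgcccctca
Orm2, plus strand, chr4:63362199-63362398: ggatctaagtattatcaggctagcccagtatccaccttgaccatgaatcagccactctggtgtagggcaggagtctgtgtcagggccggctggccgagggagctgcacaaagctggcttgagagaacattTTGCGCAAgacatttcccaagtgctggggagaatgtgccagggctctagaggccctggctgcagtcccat
Mt2, plus strand, chr8:94172368-94172617: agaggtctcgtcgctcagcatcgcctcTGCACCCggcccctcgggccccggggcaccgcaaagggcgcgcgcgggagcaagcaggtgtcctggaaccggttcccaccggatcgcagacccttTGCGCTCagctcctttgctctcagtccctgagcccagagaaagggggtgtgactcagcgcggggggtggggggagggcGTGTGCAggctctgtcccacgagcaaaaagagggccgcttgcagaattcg
Mt1, plus strand, chr8:94178839-94179088: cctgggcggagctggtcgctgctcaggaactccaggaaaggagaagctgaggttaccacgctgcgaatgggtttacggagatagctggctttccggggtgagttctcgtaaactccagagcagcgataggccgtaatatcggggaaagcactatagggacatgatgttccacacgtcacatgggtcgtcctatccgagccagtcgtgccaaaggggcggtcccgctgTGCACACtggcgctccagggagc

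The shown Saa1 and Saa2 windows were 94.5% identical over 199 aligned bases, and the C/EBP match lay at -182 in Saa1 and -183 in Saa2 from the start. A C/EBP match was found in 7 of the 8 matched windows, including all 6 acute phase genes matched (Lcn2 at -216, Steap4 at -87, Saa3 at -99 and Orm2 at -120), against 10.8% of 32817 promoter windows of the same length. The Lcn2 window lies inside the annotated gene, and 147 of its first 200 bases are annotated exon. The shown Mt1 window holds 7 bases of annotated Mt1 exon, since the GENCODE start lies before the RefSeq start. The STAT motif TTCNNNGAA was found in 1 of the 8 windows (Steap4; 8.29% of all windows), the NF-kB motif in 1 (Steap4; 1.63%) and the glucocorticoid receptor motif AGAACA in 1 (Orm2; 19.0%). The GATA motif AGATAA was found in 2 (Orm2 and Saa3; 11.2%) and TGATAA in 1 (Orm2; 9.06%), and the LXR direct repeat (DR4) in 0 (0.015%). The metal response element core occurred 4 times in the Mt2 window and 3 times in the Mt1 window, counting matches after the start, and 0 times in the other 6. Among all windows 25.7% held at least 1 match and 1.97% held 3 or more. These are matches of letters and not measured sites, and each motif was searched on both strands without regard to overlap with the others.

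Between 11.8 M and 22.05 M reads per library were assigned to genes. In 5 libraries (control vehicle 1, control GW3965 10 and 13, Gata4LKO GW3965 17 and 18, numbered as in the sample titles) mitochondrially encoded genes took 15.6% to 32.6% of the normalized counts, against 6.06% to 7.26% in the other 12. Those 12 comprised 3 of control vehicle, 4 of Gata4LKO vehicle, 2 of control GW3965 and 3 of Gata4LKO GW3965. The treatment characteristic contradicts the title in 8 libraries, those of the Gata4LKO vehicle and control GW3965 groups; groups here follow the titles, which match the comparison tables that each sample description names. Gm5345, a processed pseudogene (chr8:40853828-40855027), was at 1.64 normalized counts or less in 6 libraries (all 4 of Gata4LKO vehicle, and control GW3965 9 and 10) and at 23.1 or more in the other 11, and this state was used as a covariate in an alternative fit. The state varied inside the control GW3965 group only. That fit therefore takes the covariate's effect from those 4 libraries and carries it over to the other groups. With vehicle the state coincides with the genotype. Among 12 known LXR targets fixed as a list, 9 rose with GW3965 in control livers, where 0.792% of all genes were called, and 4 in Gata4LKO livers, where 0.247% were (limma, adjusted p below 0.05), in the direction of the titles. DESeq2 called 10 and 9 of the 12, against 228 and 195 of all 13379 genes. For the interaction 0 of the 12 were called by limma, edgeR or DESeq2. Gata4 mRNA was not lower in the livers labelled Gata4LKO: the count was 153 ± 27.3 (SD) in control vehicle, 194 ± 44.2 in Gata4LKO vehicle, 221 ± 44.1 in control GW3965 and 219 ± 41.2 in Gata4LKO GW3965. A count over the whole gene does not separate the floxed exons from the rest, so it does not check the labels, and Gata4LKO is used below as the name the labels give. Neutrophil markers summed to 19.9 to 88.8 normalized counts over 13 genes, 8 to 10 of them below 10 in every library of a group, and Ly6g reached at most 1.75. Of 5 adipose markers 3 were in the table, with sums of at most 77.4 and Adipoq at most 1.11. None of the 7 hepatocyte markers was below 10 in all libraries of any group.

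Values below are the authors' normalized counts by library; differences are on the log2(normalized count + 1) scale, with the standard error (SE) from a limma fit over 13379 genes and 17 libraries. The threshold was an adjusted p of 0.05 after Benjamini-Hochberg adjustment over those 13379 genes, and genes below it are termed called. The lowest read count of any member in any library was 35, for Lcn2, and the highest was 80828, for Hp. Per kilobase of principal transcript, Hp was the most abundant member in control vehicle livers (44564 ± 7693 normalized counts per kb, SD), followed by Orm1 (9381 ± 1960). Mt2 (5030.1 ± 2398), Mt1 (4647 ± 1890) and Saa1 (3621 ± 2037) came next, with overlapping values. Saa2, Steap4, Lcn2, Orm2 and Saa3 followed, from 583 ± 308 for Saa2 to 94.8 ± 17.9 for Saa3, and neighbours in this order overlapped. In control GW3965 livers Lcn2 was at 61.4 ± 30.9 per kb, overlapping Saa3 and Orm2 as the lowest members.

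Lcn2 fell with GW3965 in control livers, with a fold of 0.248, and was the member that passed the threshold; most other members had lower values that did not pass it. With GW3965 in control livers, 9 of 10 members had negative differences, with a median of -0.62 on the log2 scale, where the median of all genes was -0.0050. Of the 10, 1 was called, Lcn2, where 0.792% of all genes tested were called, and 6 had an unadjusted p below 0.05, as did 8.96% of all genes. No member had groups that did not overlap for GW3965 in Gata4LKO livers, where 5.25% of all genes did. There, 6 of 10 differences were positive, the median was 0.32 (-0.0049 over all genes), and 0 members were called by limma, where 0.247% of all genes were called. Only Saa2 had an unadjusted p below 0.05 there, as did 11.95% of all genes, and edgeR and DESeq2 on the recovered reads also called 0 members.

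Between genotypes, with vehicle, 8 of 10 differences (Gata4LKO minus control) were negative, with a median of -0.34 (-0.0081 over all genes), and 0 members were called by limma, where 0.0149% of all genes were called. Saa1 and Mt1 had unadjusted p below 0.05, as did 6.15% of all genes, and edgeR and DESeq2 also called 0 members. With GW3965, 10 of 10 differences were positive, with a median of 0.57 (-0.014 over all genes). There 1 member was called, again Lcn2, where 0.0598% of all genes were called, and 4 had an unadjusted p below 0.05, as did 6.47% of all genes. The interaction, the effect of GW3965 in Gata4LKO minus that in control, was positive for 10 of 10 members, with a median of 1.10 against -0.0041 over all genes. None of the 10 passed the adjusted threshold for the interaction in limma, where 0.0149% of all genes did. Lcn2, Saa1 and Saa2 had unadjusted p below 0.05, as did 4.65% of all genes. DESeq2 called Lcn2, and 26 of all 13379 genes. In the authors' deposited tables, members past an adjusted p of 0.05 numbered 2 for GW3965 in control livers (Lcn2 and Mt1, where 1.62% of genes passed), 1 for genotype with GW3965 (Lcn2, 0.51% of genes) and 1 for the interaction (Lcn2, 0.19% of genes). They numbered 0 for genotype with vehicle (0.434% of genes) and 0 for GW3965 in Gata4LKO livers (1.33% of genes). These comparisons share groups, so they do not support each other. Without the 5 libraries of high mitochondrial share, 9 of 10 members were negative for GW3965 in control livers (median -0.87), 8 of 10 were negative between genotypes with vehicle (median -0.43), 8 of 10 were positive between genotypes with GW3965 (median 0.31) and 9 of 10 had a positive interaction (median 0.89). That fit held 2 control GW3965 libraries. In that fit limma called 0 members in each of these 4 comparisons, and 7, 4, 2 and 4 had an unadjusted p below 0.05, in the order given. Of all 13379 genes it called 63, 14, 9 and 1, and 1415, 1372, 911 and 910 had an unadjusted p below 0.05. For GW3965 in Gata4LKO livers the median was 0.07 without those 5, with 6 of 10 members positive. There limma called 0 members and 0 had an unadjusted p below 0.05, against 23 and 1445 of the 13379 genes. In bulk tissue, fewer cells of a type and less RNA per cell cannot be told apart.

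**Figure D1:**
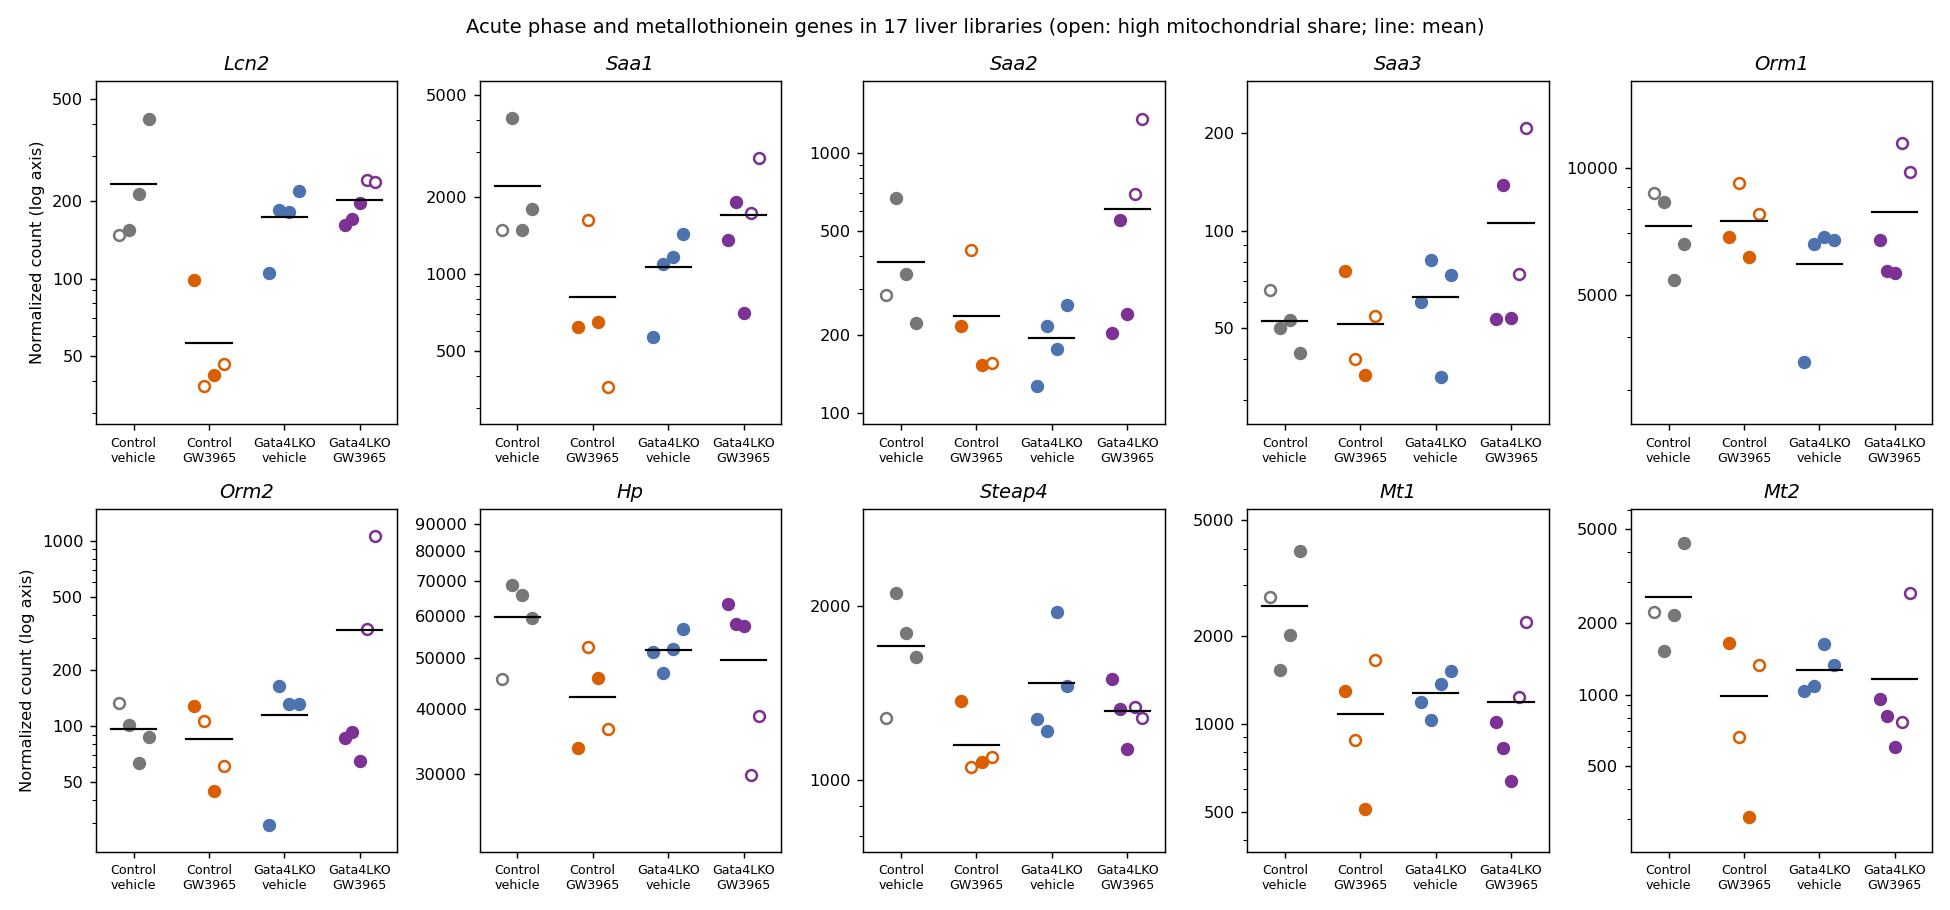
Normalized count (log axis) of each member in 17 liver libraries by group; points are libraries, open points the 5 with a high mitochondrial share, and lines are group means. Lcn2 in the control GW3965 group sits between 38.0 and 98.3, below all libraries of the other 3 groups.

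Lcn2 encodes lipocalin-2, which binds bacterial siderophores and so withholds iron. In control livers the Lcn2 count was 148, 155, 214 and 419 with vehicle and 98.3, 38.0, 42.0 and 46.5 with GW3965 (libraries 9, 10, 12 and 13). In Gata4LKO livers it was 105, 185, 182 and 219 with vehicle and 161, 170, 197, 243 and 238 with GW3965. The control GW3965 group thus lay below every library of the other groups, and those 3 groups overlapped one another.

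Lcn2 fell by 2.01 ± 0.33 (SE) on the log2 scale with GW3965 in control livers (limma, adjusted p = 0.00793), a fold of 0.248 with a 95% interval of 0.153 to 0.401. The exact two-sided permutation test gave p = 0.0286, the smallest that 4 against 4 libraries allow, and 0.254 after adjustment over members and comparisons. The groups did not overlap, which was the case for 2.71% of all genes in this direction and for 1 of the 10 members. The authors' deposited table gives -2.05 with an adjusted p of 3.11e-06. The call held without each library in turn, with adjusted p from 0.00167 to 0.0421, but not without the libraries of high mitochondrial share (-1.89, adjusted p = 0.0786) or with only the compared groups in the fit (adjusted p = 0.0967). Leaving out the libraries of high mitochondrial share kept 2 control GW3965 and 3 control vehicle libraries.

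With GW3965, Lcn2 was higher in Gata4LKO than in control livers by 1.91 ± 0.31 (limma, adjusted p = 0.0301), a fold of 3.77 with a 95% interval of 2.39 to 5.94. The exact permutation p was 0.0159, the smallest that 4 against 5 libraries allow, and 0.254 after adjustment over members and comparisons. The groups did not overlap, as for 0.822% of all genes in this direction. The authors' deposited table gives 1.83 with an adjusted p of 9.45e-05. This call was less stable: it held in 3 of 9 fits that left out a library. The adjusted p was 0.0517, 0.0503 and 0.0855 without Gata4LKO GW3965 14, 16 and 18, and 0.0874, 0.140 and 0.0842 without control GW3965 10, 12 and 13. It was 0.0700 with edgeR. It was 0.439 without the libraries of high mitochondrial share, where the difference was 1.43. That fit kept 2 control GW3965 libraries, 9 and 12, of which 9 had the highest Lcn2 count of its group. With vehicle, the genotype difference of Lcn2 was -0.35 ± 0.33, and with GW3965 in Gata4LKO livers the difference from vehicle was 0.25 ± 0.31, neither past the threshold. The interaction of Lcn2 was 2.26 ± 0.45 (limma, unadjusted p = 1.0e-04, adjusted p = 0.149); DESeq2 on the recovered reads gave an adjusted p of 0.00290, and the authors' deposited table gives 2.27 with 0.00278.

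Markers of other cell types were compared too. All 11 genes of the Kupffer cell and macrophage list were at positive differences for GW3965 in control livers, 1 of them called by limma and by edgeR (Cd5l, a scavenger protein of resident macrophages), where limma called 0.792% of all genes. DESeq2 called 4 (Cd5l, Adgre1, Cd68 and Timd4), and 228 of all 13379 genes. The summed count of the 11 was 2429 to 3385 in control vehicle and 4239 to 7071 in control GW3965. Of 6 markers of stellate cells and fibroblasts, 6 had positive differences between genotypes with GW3965, 0 of them called by limma or edgeR. DESeq2 called 1 of the 6, and 80 of all 13379 genes. An unadjusted limma p below 0.05 was found for 4 of the 6, as for 6.47% of all genes. Their sums were 2898 to 3656 in control GW3965 and 3892 to 5645 in Gata4LKO GW3965. The part of either list in the Lcn2 differences was not tested.

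Steap4, a metalloreductase of the plasma membrane and endosomes that reduces iron and copper, had 1278, 2108, 1797 and 1631 counts in control vehicle and 1368, 1050.04, 1075 and 1096 in control GW3965. The lowest vehicle library, control vehicle 1, lay below the highest GW3965 library, control GW3965 9. The difference was -0.56 ± 0.16 (limma, unadjusted p = 0.00287, adjusted p = 0.167), and the authors' deposited table gives an adjusted p of 0.0589. In Gata4LKO livers Steap4 ranged from 1216 to 1954 with vehicle and from 1129 to 1493 with GW3965, a difference of -0.15 ± 0.15. Among the 10 members Steap4 had the smallest spread within the GW3965 groups, with a coefficient of variation of 12.9% in control and 9.93% in Gata4LKO livers.

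Hp encodes haptoglobin, which binds free haemoglobin in plasma. Its count was 45534, 68798, 65860 and 59563 in control vehicle and 33697, 52433, 45699.6 and 36512 in control GW3965, overlapping groups with a difference of -0.51 ± 0.22 (limma, adjusted p = 0.470). In Gata4LKO livers Hp ranged from 46844 to 56808 with vehicle. With GW3965 it was 63464, 58072 and 57608 in libraries 14, 15 and 16 and 29870 and 38687 in libraries 17 and 18, the pair with a high mitochondrial share. Without the 5 libraries of high mitochondrial share the Hp difference with GW3965 was -0.72 ± 0.15 in control livers (limma, unadjusted p = 0.000313, adjusted p = 0.0555) and 0.21 ± 0.12 in Gata4LKO livers, where it was -0.11 ± 0.21 with all libraries. The interaction of Hp was 0.40 ± 0.31 with all libraries and 0.93 ± 0.19 without those 5 (unadjusted p = 0.000340, adjusted p = 0.191). The fit without those 5 held 2 control GW3965, 3 control vehicle, 3 Gata4LKO GW3965 and 4 Gata4LKO vehicle libraries.

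**Figure D2:**
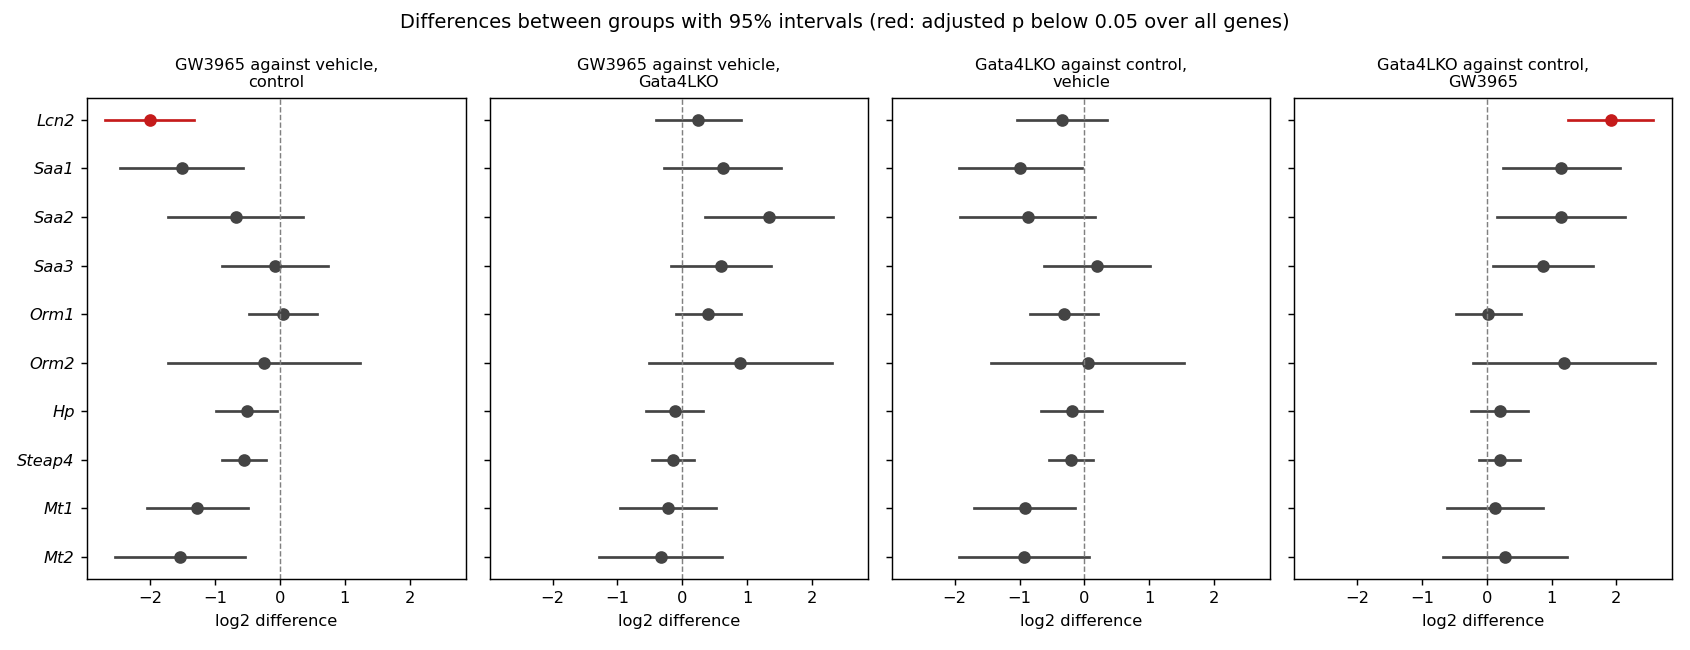
Log2 differences (points) with 95% intervals (lines) for the 10 members in 4 comparisons from the limma fit over all genes; red marks an adjusted p below 0.05. Lcn2 is the member in red, at -2.01 for GW3965 in control livers and at 1.91 for Gata4LKO against control with GW3965.

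Serum amyloid A proteins are small apolipoproteins carried on high-density lipoprotein; Saa1 and Saa2 are made mainly by hepatocytes in an acute phase response, and Saa3 also by macrophages and fat. The Saa1 count was 1481, 4052, 1488 and 1801 in control vehicle and 621, 1629, 650 and 363 in control GW3965. Control GW3965 10, at 1629, lay inside the vehicle range, while the other 3 lay below it. In Gata4LKO livers Saa1 was 565, 1090, 1166 and 1432 with vehicle and 1354, 1913, 703, 1727 and 2838 with GW3965, overlapping groups.

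With vehicle, all 4 Gata4LKO values of Saa1 lay below all 4 control values. Saa1 and Mt1 were the 2 members whose groups did not overlap in this comparison, both lower in Gata4LKO livers, where 3.58% of all genes were so. The difference of Saa1 was -0.99 ± 0.45 (limma, unadjusted p = 0.0415, adjusted p = 0.794; exact permutation p = 0.0286), so it did not pass the threshold over all genes. With GW3965 the genotype difference of Saa1 was 1.15 ± 0.43 (limma, unadjusted p = 0.0154, adjusted p = 0.616). The effect of GW3965 on Saa1 was -1.52 ± 0.45 in control livers (adjusted p = 0.184) and 0.62 ± 0.43 in Gata4LKO livers (adjusted p = 0.534), with an interaction of 2.14 ± 0.62 (unadjusted p = 0.00296, adjusted p = 0.610).

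The Saa2 count was 284, 673, 342 and 222 in control vehicle and 216, 422, 153 and 155 in control GW3965. In Gata4LKO livers Saa2 was 127, 217, 176 and 261 with vehicle and 203, 554, 239.6, 692 and 1345 with GW3965 (libraries 14 to 18). Libraries 15, 17 and 18 were above all vehicle libraries of that genotype, and libraries 14 and 16 were inside their range. The difference with GW3965 was 1.34 ± 0.47 in Gata4LKO livers (limma, unadjusted p = 0.0107, adjusted p = 0.287) and -0.68 ± 0.49 in control livers (adjusted p = 0.820), with an interaction of 2.02 ± 0.68 (unadjusted p = 0.00838, adjusted p = 0.821). Without the libraries of high mitochondrial share the difference in Gata4LKO livers was 0.66 ± 0.39 (adjusted p = 0.580).

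The ratio of Saa1 to Saa2 counts, not corrected for length, had medians of 5.62 in control vehicle, 5.26 in Gata4LKO vehicle, 3.37 in control GW3965 and 2.93 in Gata4LKO GW3965. In control livers the ratio ran from 4.36 to 8.10 with vehicle and from 2.33 to 4.25 with GW3965, so the groups did not overlap. In Gata4LKO livers it ran from 4.43 to 6.60 with vehicle and from 2.11 to 6.69 with GW3965, where library 14 held the highest ratio and the other 4 were at 3.45 or lower. No test was made of these ratios, and the near identity of the transcripts limits them.

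Saa3 was low throughout, at 41.7 to 65.7 in control vehicle, 35.3 to 81.0 in Gata4LKO vehicle and 35.8 to 75.0 in control GW3965. In Gata4LKO GW3965 it was 53.4, 139, 53.7, 73.2 and 208, so libraries 15 and 18 were above all libraries of the other groups. The genotype difference with GW3965 was 0.87 ± 0.37 (limma, unadjusted p = 0.0300, adjusted p = 0.702), and the other contrasts of Saa3 lay between -0.08 and 0.67.

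Orm1 and Orm2 encode orosomucoids (alpha-1-acid glycoproteins), plasma lipocalins that bind drugs and other small lipophilic molecules. Orm1 ranged from 5441 to 8724 in control vehicle, 6175 to 9186 in control GW3965, 3486 to 6872 in Gata4LKO vehicle and 5641 to 11425 in Gata4LKO GW3965. All 4 ranges overlapped, and no difference of Orm1 exceeded 0.40 in size on the log2 scale. For GW3965 in control livers Orm1 was the member with a positive difference, 0.05 ± 0.25, with a 95% interval of -0.47 to 0.58.

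Orm2 was 133, 101.3, 63.4 and 87.4 in control vehicle and 128, 106, 44.6 and 61.1 in control GW3965. In Gata4LKO livers it was 29.4, 165, 131 and 132 with vehicle and 86.4, 93.1, 64.6, 333 and 1065 with GW3965. The values of 333 and 1065, in libraries 17 and 18, stood above every other library of the study. The difference with GW3965 in Gata4LKO livers was 0.90 ± 0.67 (limma, adjusted p = 0.563) with all libraries and -0.25 ± 0.51 without those of high mitochondrial share, to which libraries 17 and 18 belong. The Orm1 to Orm2 ratio was 34.3 in library 17 and 9.20 in library 18, against 39.9 to 138 in the other 15.

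Mt1 and Mt2 are the metallothioneins that the liver expresses. The Mt1 count was 2739, 1532, 2014 and 3918 in control vehicle and 1299, 880.04, 511 and 1655 in control GW3965. Only control GW3965 13, at 1655, reached into the vehicle range, above control vehicle 2. In Gata4LKO livers Mt1 was 1187, 1035, 1375 and 1520.2 with vehicle and 1016, 828, 639, 1243 and 2246 with GW3965, overlapping groups in which library 18 was highest.

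Mt2 was 2235, 1535, 2166 and 4346 in control vehicle and 1644, 660.02, 304 and 1338 in control GW3965. Its overlap was control GW3965 9, at 1644, above control vehicle 2, at 1535. In Gata4LKO livers Mt2 was 1033, 1087, 1640.1 and 1328 with vehicle and 955, 812, 602, 769 and 2686 with GW3965. Library 18 was above all vehicle libraries of this genotype, and the groups overlapped. The difference with GW3965 in these livers was -0.33 ± 0.45 for Mt2 and -0.22 ± 0.35 for Mt1 (limma, adjusted p = 0.750 and 0.790).

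With GW3965 in control livers the difference was -1.27 ± 0.37 for Mt1 (limma, unadjusted p = 0.00299, adjusted p = 0.171) and -1.55 ± 0.48 for Mt2 (unadjusted p = 0.00452, adjusted p = 0.203). The exact permutation p was 0.0571 for each. DESeq2 on the recovered reads called Mt1 (adjusted p = 0.0456), and 228 of all 13379 genes. The authors' deposited table gives -1.23 with an adjusted p of 0.0447. With vehicle, all 4 Gata4LKO values of Mt1 lay below all 4 control values, with a difference of -0.92 ± 0.37 (limma, unadjusted p = 0.0231, adjusted p = 0.705; exact permutation p = 0.0286). For Mt2 it was -0.93 ± 0.48 (adjusted p = 0.834), and Gata4LKO vehicle 7, at 1640.1, overlapped the controls. With GW3965 the genotype differences were 0.13 ± 0.35 for Mt1, with a 95% interval of -0.61 to 0.87, and 0.28 ± 0.45 for Mt2. The interactions were 1.05 ± 0.51 for Mt1 and 1.21 ± 0.66 for Mt2, with an adjusted p of 0.997 for each. In the vehicle comparison, the 11 Kupffer cell and macrophage genes were all at positive differences, 0 of them called by limma or edgeR. DESeq2 called 3 of the 11, and 50 of all 13379 genes. An unadjusted limma p below 0.05 was found for 9 of the 11, as for 6.15% of all genes. The sum of the 11 was 2429 to 3385 in control and 4220 to 5155 in Gata4LKO livers. The 7 hepatocyte markers were all at negative differences there, 0 of them called by limma, edgeR or DESeq2 and 1 with an unadjusted p below 0.05, and their sum was 2.02 M to 2.18 M in control and 1.64 M to 1.89 M in Gata4LKO livers, which did not overlap. The part of either list in the Saa1, Mt1 and Mt2 differences was not tested.

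**Figure D3:**
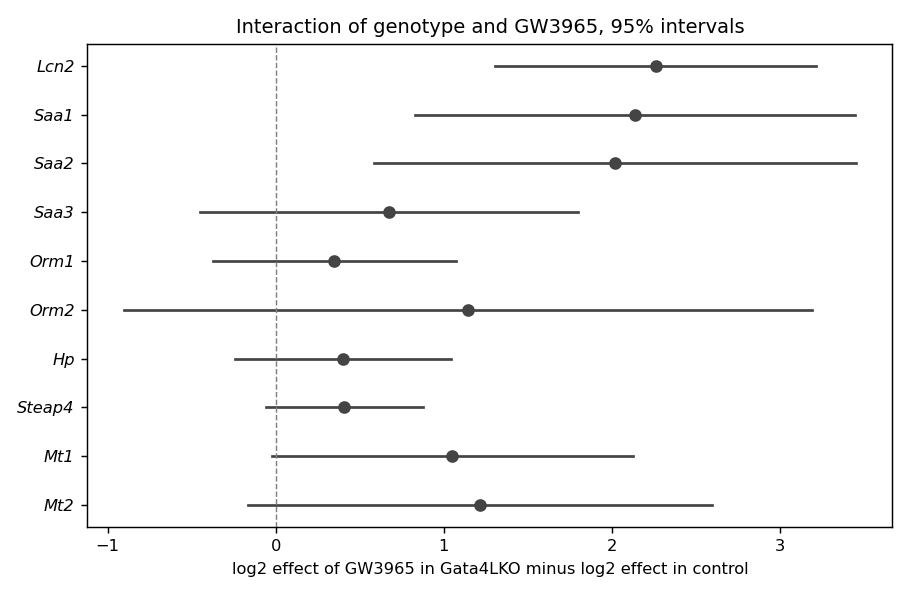
Interaction of genotype and GW3965 for the 10 members, as the log2 effect of GW3965 in Gata4LKO minus that in control (points) with 95% intervals (lines). All 10 points lie above 0, from 0.35 for Orm1 to 2.26 for Lcn2, and the intervals of Lcn2, Saa1 and Saa2 exclude 0.

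Within groups, the paired family genes (Mt1 and Mt2, Saa1 and Saa2, Orm1 and Orm2) varied together from library to library. Deviations of log2 values from the group mean were correlated over 17 libraries for all 45 pairs of members, with p from 100000 permutations within groups and Benjamini-Hochberg adjustment over the 45 pairs. The r was positive in 37 pairs, and 4 pairs had an adjusted p below 0.05. Mt1 and Mt2 had r = 0.92 (Spearman rho = 0.85, permutation p = 0.000230 and 0.000720, adjusted p = 0.0101 and 0.0254), and r was 0.86 without the 2 libraries farthest from the median of Mt1. Within the 12 libraries of low mitochondrial share r was 0.94.

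Saa1 and Saa2 had r = 0.83 (rho = 0.81, permutation p = 0.000450 and 0.00113, adjusted p = 0.0101 and 0.0254), 0.77 without the 2 farthest libraries and 0.79 within the 12. Orm1 and Orm2 had r = 0.82 (rho = 0.84, permutation p = 0.00358 and 0.00333, adjusted p = 0.0403 and 0.0499), 0.79 without the 2 farthest and 0.86 within the 12. The part of reads shared between near-identical transcripts in these pairs was not tested. Saa2 and Orm2, on different chromosomes, had r = 0.75 (rho = 0.67, permutation p = 0.00357 and 0.0195, adjusted p = 0.0403 and 0.134), 0.60 without the 2 farthest and 0.62 within the 12, so their relation passed the threshold by r and not by rho. Lcn2 was nearest to Mt2 (r = 0.60, rho = 0.54, permutation p = 0.0187 and 0.0293, adjusted p = 0.110 and 0.134; r = 0.39 without the 2 farthest and 0.77 within the 12), while its r with Saa1 was 0.03 and with Saa2 0.06. Hp had negative r with 7 of the other 9 members, -0.58 with Orm2 and -0.55 with Mt1 among them, and Hp was positive with Saa1 (0.11) and Steap4 (0.17). The permutation test of r gave an adjusted p of 0.214 for Hp with Orm2 and for Hp with Mt1. No pair with Hp passed the threshold.

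**Figure D4:**
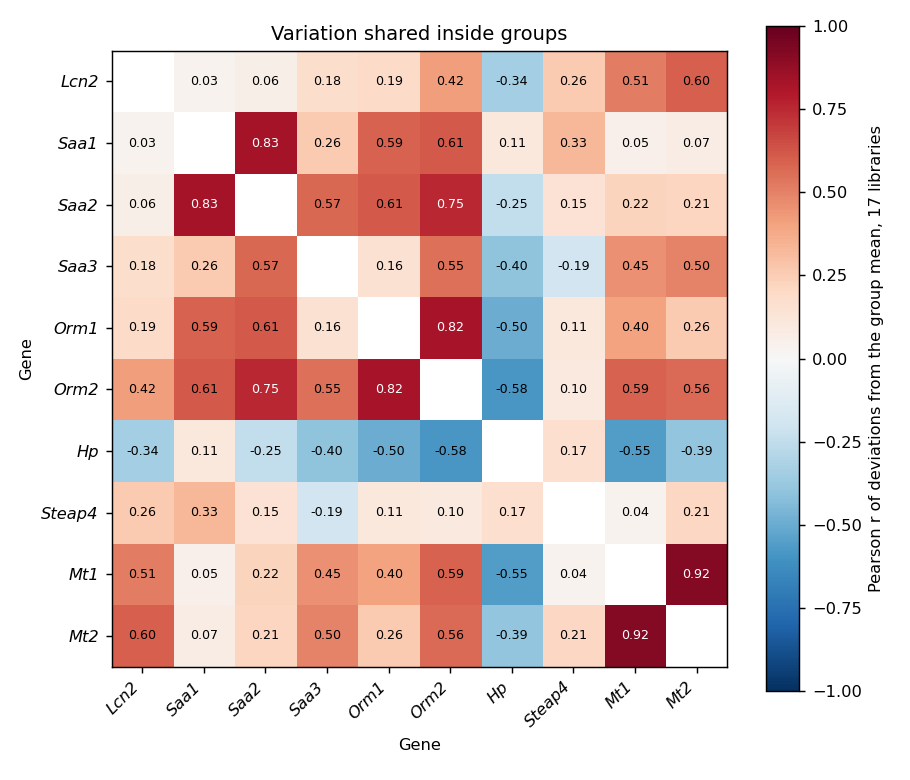
Pearson r between members of the deviations of log2 values from the group mean, over 17 libraries; red is positive and blue negative. The family pairs Mt1 and Mt2 (0.92), Saa1 and Saa2 (0.83) and Orm1 and Orm2 (0.82) have the highest values. The row of Hp is mostly negative, with no Hp pair at an adjusted p below 0.05.

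Outside the members, the genes whose log2 values most resembled those of a member over the 17 libraries, groups included, were taken by Pearson r among 13369 genes. For Lcn2 they were Zfp870 (r = 0.84), Fh1 (0.84), C130013H08Rik (0.82), Nnmt (0.80) and Gdf10 (0.79). For Saa1 they were Itih3 (r = 0.86), Zfp507 (0.82), Zhx3 (0.74), Gdf2 (0.73) and Hectd2 (0.71). Itih3, a heavy chain of the inter-alpha-trypsin inhibitors, is itself an acute phase gene. For Hp they were Tbl2 (r = 0.86), Klhdc10 (0.86), Zfp410 (0.85), Tmem79 (0.85) and Ankrd46 (0.85), and for Mt1 they were Birc5 (0.81), Pipox (0.79), C730036E19Rik (0.77), C130074G19Rik (0.76) and Ikbkb (0.75). These genes were picked as the highest of many and carry no test.

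Further genes of the pathway were taken as lists. Of 28 further positive acute phase genes, 26 had negative differences with GW3965 in control livers, with a median of -0.29 against -0.0050 over all genes. Of these 28, 1 was called, Serpina3m, which fell by 1.30 ± 0.25 (limma, adjusted p = 0.0203), and 12 were lower with an unadjusted p below 0.05, where 8.96% of all genes had such a p in either direction. EdgeR called Serpina3m too, and DESeq2 called Serpina3m and Serpina3n. For GW3965 in control livers limma called 0.792% of all genes, and DESeq2 called 228 of all 13379. The Serpina3m call was lost without control vehicle 3 (adjusted p = 0.0756) or 4 (0.0566), without the libraries of high mitochondrial share (0.0555), with the state of Gm5345 as a covariate (-0.91, 0.392) and with only the compared groups in the fit (0.101), and its annotated span overlaps that of Serpina3k. In Gata4LKO livers 18 of the 28 were negative, with a median of -0.16 and 0 called by limma, edgeR or DESeq2 (4 lower with an unadjusted p below 0.05, namely Serpina10 at -0.62, Serpina1b at -0.40, Serpina3k at -0.74 and Agt at -0.38). In that comparison 11.95% of all genes had such a p in either direction, and Serpina3m was at -0.36 ± 0.23. Of 11 negative acute phase genes, whose levels fall in inflammation, 9 had negative differences in control and 7 in Gata4LKO livers, with 0 called by limma, edgeR or DESeq2 and 0 with an unadjusted p below 0.05 in each.

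Among 26 tested genes of inflammatory signalling, 1 was called with GW3965 in control livers, where 0.792% of all genes were called. There 18 of the 26 had negative differences, with a median of -0.053 against -0.0050 over all genes. Of the 26, 3 were lower with an unadjusted p below 0.05, where 8.96% of all genes had such a p. In Gata4LKO livers 13 were positive and 13 negative (median -0.0016), with 0 called by limma. There 2 were higher and 3 lower with such a p, where 11.95% of all genes had it. Il6ra, the receptor chain that binds interleukin-6, was at 4171, 3824, 4058 and 4906 in control vehicle and 2077, 1441, 2362 and 2985 in control GW3965, and it fell by 0.98 ± 0.17 (limma, adjusted p = 0.0136). Without control vehicle 4 its adjusted p was 0.0518, with the state of Gm5345 as a covariate it was 0.328, and with only the compared groups in the fit it was 0.101. In Gata4LKO livers Il6ra ranged from 2830.3 to 3594 with vehicle and from 2835 to 4048 with GW3965, a difference of 0.06 ± 0.17, and its interaction was 1.03 ± 0.24 (unadjusted p = 0.000439, adjusted p = 0.293; called by DESeq2), which became 0.11 with the Gm5345 covariate. Il1r1, the signalling receptor of interleukin-1, was at -0.54 ± 0.18 with GW3965 in control and 0.75 ± 0.17 in Gata4LKO livers (adjusted p = 0.258 and 0.0652), with an interaction of 1.29 ± 0.25 (unadjusted p = 5.5e-05, adjusted p = 0.105). DESeq2 called Il1r1 for GW3965 in Gata4LKO livers (adjusted p = 0.00494), for genotype with GW3965 and for the interaction (adjusted p = 0.00203). Of all 13379 genes it called 195, 80 and 26 there, in the same order. The cytokine transcripts Il6 and Tnf reached at most 1.75 and 9.17 normalized counts in any library.

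Glucocorticoid and metal handling genes formed further lists. Of 15 glucocorticoid-responsive genes, 12 had negative differences with GW3965 in control livers (median -0.53, 7 with an unadjusted p below 0.05, against 8.96% of all genes) and 10 had positive differences in Gata4LKO livers (median 0.14, 2 with an unadjusted p below 0.05, against 11.95% of all genes), with 0 called by limma or edgeR in each. DESeq2 called 2 of them in control livers, Pck1 and Fkbp5, and 0 in Gata4LKO livers, against 228 and 195 of all 13379 genes. Pck1, a gluconeogenic enzyme, was at -1.14 ± 0.28 in control and -0.31 ± 0.27 in Gata4LKO livers. Fkbp5, a co-chaperone of the glucocorticoid receptor, was at -0.97 ± 0.25 and -0.22 ± 0.24, and Zbtb16, a transcription factor, at -1.62 ± 0.50 and 1.41 ± 0.47. Of 11 tested genes of metal handling, 6 had negative differences in control livers (median -0.05) and 7 in Gata4LKO livers (median -0.16), with 0 called by limma or edgeR and 2 with an unadjusted p below 0.05 in each, where 8.96% and 11.95% of all genes had such a p. DESeq2 called Slc39a14 in control livers, where it called 228 of all 13379 genes. In Gata4LKO livers, where it called 195, it called Hif3a and Slc30a5. Slc39a14, a zinc and iron importer also induced in the acute phase, was at -0.83 ± 0.23 in control and -0.45 ± 0.22 in Gata4LKO livers.

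**Figure D5:**
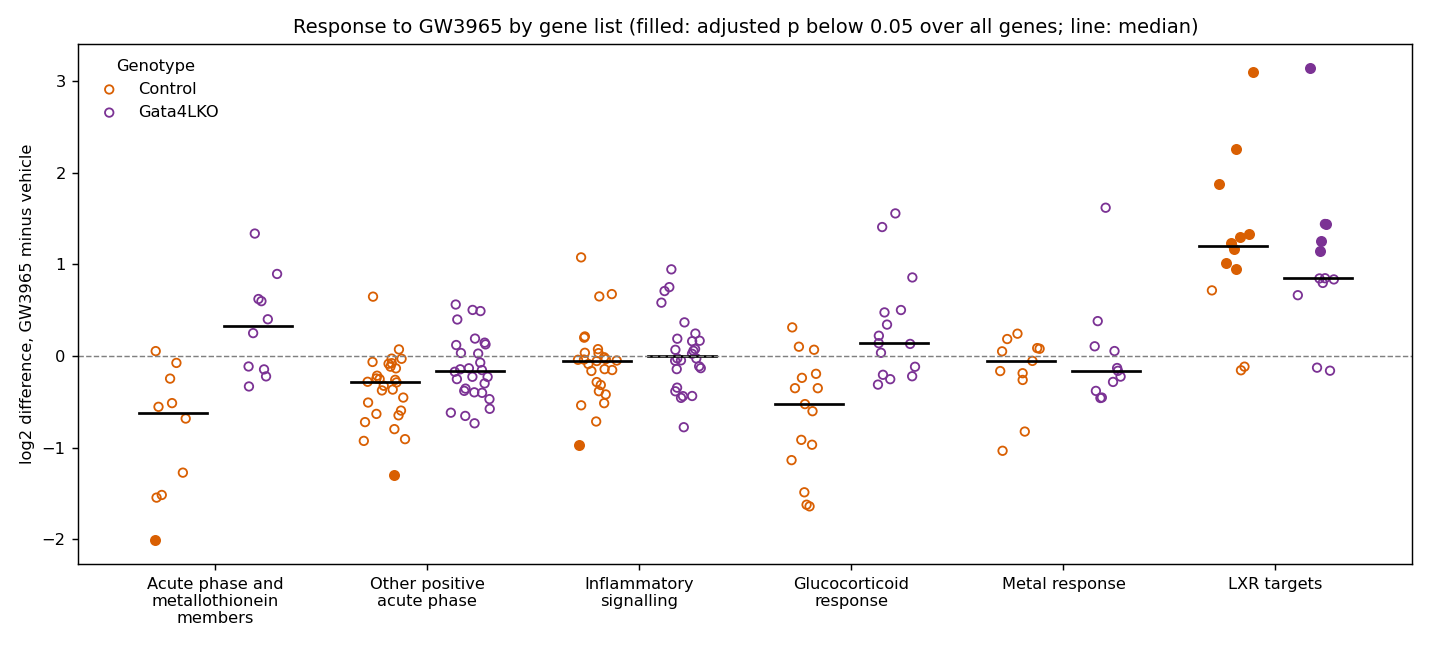
Log2 difference between GW3965 and vehicle for the genes of 6 lists, in control (orange) and Gata4LKO (purple) livers; filled points have an adjusted p below 0.05 over all genes and lines are medians. The median of the members is -0.62 in control and 0.32 in Gata4LKO livers, and without the libraries of high mitochondrial share -0.87 and 0.07.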

How the data were processed

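Liver RNA of 17 libraries was grouped by sample title. STAR 2.6.0c, FastQC, DESeq2 and mm10 are named in the submitters' processing notes; how reads were counted, with which annotation and strand setting, is not stated there. The authors deposited a normalized signal, in which each read count is divided by a single size factor of its library; multiplying back gave a whole number, to within 0.05 read, for 100% of values. Their comparison tables hold columns of log2 fold changes and of p-values, raw and adjusted, per the file headers. Of 24676 genes, 422 had no symbol.

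limma-trend (limma 3.58.1, R 4.3.3) was fitted to log2(normalized count + 1), with a coefficient for every group, to the 13379 genes at 10 or more in at least 4 libraries, with Benjamini-Hochberg adjustment. This scale understates changes of low genes. edgeR 4.0.16 and DESeq2 1.42.0 on the recovered reads were among the alternatives, and the scripts were tested on simulated data. Exact permutation tests of single members are two-sided, and their p-values are printed unadjusted unless stated. After Benjamini-Hochberg adjustment over members and comparisons together, the lowest exact permutation p was 0.254. Named genes were all members, every called gene of a context list or otherwise up to 4 with the smallest p, and the 5 genes most like Lcn2, Saa1, Hp and Mt1; Il1r1, Serpina3m, Slc39a14, Pck1, Fkbp5 and Zbtb16 are given in both treatment comparisons once named in either. Members and lists were chosen with earlier results of these data known. Whether every library is a different mouse is not said in the labels, so p-values measure the spread between libraries, which may be technical.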

Additional observations from a re-analysis of the deposited data

Results flagged for a closer look

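In 6 of the 40 member and group combinations, a single library stood far from the others of its group by Dixon's criterion. The criterion was applied to normalized counts and not to the log2 values used for the differences. Chance meets it in about 1 in 20 groups of normally distributed values, and whether these counts are so distributed was not tested. Members that vary together also make the 40 combinations dependent, so 6 of 40 is not a measure of excess. Lcn2 was 98.3 in control GW3965 9, where the other 3 libraries were at 38.0 to 46.5, and Steap4 was 1368 in the same library. Saa1 was 4052 in control vehicle 2, above the 1481 to 1801 of the other 3. Orm1 was 3486 in Gata4LKO vehicle 5, below the other 3. Orm2 was 1065 and Mt2 2686 in Gata4LKO GW3965 18, a library of high mitochondrial share in which Saa1, Saa2, Saa3 and Mt1 were also highest of their group.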

How the results depend on the processing

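No paired analysis was possible because the groups share no library numbers. The fit with only the groups compared was not run for the interaction. Over 50 member results, 1103 of 1150 alternative values kept their direction and side of the threshold. Most of these are results not called that stayed so. The 2 called results, both of Lcn2, lost the call in 12 of their alternative values. For GW3965 in control Lcn2 was called in 8 of 8 fits that left out a library and in 11 of 13 others. For genotype with GW3965 it was called in 3 of 9 and in 9 of 13. The cause of the changes below was not tested. The effect of the Gm5345 covariate rests on the 4 control GW3965 libraries, the group in which its state varied.

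The number of genes called was 2 for genotype with vehicle, 8 for genotype with GW3965, 106 for GW3965 in control, 33 for GW3965 in Gata4LKO and 2 for the interaction. Leaving out each library gave 0 to 3, 2 to 21, 22 to 109, 6 to 78 and 0 to 9. In the same order DESeq2 gave 50, 80, 228, 195 and 26, and the Gm5345 covariate gave 0, 2, 12, 1 and 0. The mitochondrial covariate gave 13, 51 and 203 for the first 3 and 4 for the interaction. Only the groups compared gave 21, 1 and 19 for the first 3. Leaving out the libraries of high mitochondrial share gave 14 for genotype with vehicle, 63 for GW3965 in control and 1 for the interaction. edgeR gave 5 for genotype with GW3965 and 0 for the interaction, where a filter at 50 also gave 0. No filter gave 57 for GW3965 in control. Scaling to the total without mitochondrial genes gave 4 for genotype with vehicle and shifted the median of all genes by 0.11 there and by 0.12 for genotype with GW3965.

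Lcn2 for genotype with GW3965 was not called with the Gm5345 covariate (2.15), edgeR (1.82), only the groups compared (1.91) or without the libraries of high mitochondrial share (1.43), and ranged from 1.77 to 2.22 without each library. Lcn2 for GW3965 in control was not called with only the groups compared (-2.01) or without those libraries (-1.89). Its interaction was called by DESeq2 (2.27).

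Signs reversed as follows, in each case for differences that were not called. With the Gm5345 covariate, genotype with vehicle gave -0.11 for Saa3 and -1.10 for Orm2, GW3965 in control gave -0.046 for Orm1, and GW3965 in Gata4LKO gave 0.37 for Mt2, -0.56 for Il6ra and -0.98 for Zbtb16. With the mitochondrial covariate Orm1 was -0.039 for genotype with GW3965 and -0.034 for GW3965 in control, and Hp was 0.11 for GW3965 in Gata4LKO. Without the libraries of high mitochondrial share, genotype with GW3965 was -0.11 for Orm1 and -0.0027 for Mt1, GW3965 in control was 0.11 for Saa3 and -0.039 for Orm1, GW3965 in Gata4LKO was -0.25 for Orm2 and 0.21 for Hp, and the interaction of Orm2 was -0.13. Leaving out each library gave -0.22 to 0.053 for Hp and -0.022 to 0.12 for Il6ra (GW3965 in Gata4LKO), -0.19 to 0.38 for Mt1, -0.19 to 0.62 for Mt2 and -0.13 to 0.13 for Orm1 (genotype with GW3965), -0.078 to 0.15 for Orm1, -0.48 to 0.018 for Orm2 and -0.28 to 0.073 for Saa3 (GW3965 in control), and -0.21 to 0.61 for Orm2 (genotype with vehicle).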
